A study of Mus musculus with 45 samples.

Results

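The transcriptome of mouse hippocampal primary neurons was compared between 0.5 h and 1 h of bicuculline (Bic), that is across the second 30 min of induced action potential (AP) firing. The comparison held 10 of the 45 libraries of the series, namely the 5 labelled with 0.5 h Bic and the 5 labelled with 1 h Bic that received no later drug, paired by culture preparation (1, 3, 6, 7 and 8). Cultures came from newborn mice (C57Bl/6N per the study's methods) and grew in B27 with 1% rat serum. They received AraC, an inhibitor of dividing cells, on day in vitro 3. The study's methods give day 10 or 11 for treatments in general and day 11 for RNA sequencing. All 10 libraries carried Bic at 50 µM, and no genetic change is named for any of them. As references, 15 further libraries from the same 5 preparations were used: 5 untreated controls, 5 with 2 h Bic, and 5 of the short protocol (SP) with 0.5 h Bic followed by 0.5 h with the sodium channel blocker tetrodotoxin (TTX, 1 µM) added. One preparation gave 1 library to each condition, so n = 5 preparations throughout, and the sources do not say how many animals a preparation pooled. The question was which mRNAs still climbed, which started late and which fell while firing went on. Coordinates are those of GRCm38 (GENCODE M21). In a bulk culture, a change in the number of cells of a type and a change of RNA per cell cannot be told apart.

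Bic blocks GABA type A receptors, and disinhibited neurons then fire in synchronous bursts. Calcium entering through synaptic NMDA receptors and voltage-gated channels reaches the nucleus through CaM kinases and the ERK pathway and acts on factors already present there, such as CREB and SRF. The immediate early genes read out these factors within minutes without new protein synthesis, and many encode transcription factors of their own (the AP-1, Egr, Nr4a and Npas4 families). Others encode inhibitors of the kinases that induced them, or secreted and synaptic proteins that appear later.

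Of 14806 genes tested, 239 (1.61%) were upregulated and 47 (0.317%) were downregulated from 0.5 to 1 h Bic (edgeR's quasi-likelihood test with preparation as a block, Benjamini-Hochberg adjusted p below 0.05, called below "edgeR adjusted p"). Rises were larger than falls: 49 of the raised genes at least doubled (log2 fold change of 1 or more) and their median log2 rise was 0.56, whereas none of the 47 lowered genes changed by a factor of that size and their median was 0.34 on the same scale. The largest rise was that of Klf4, a zinc finger factor of the Krüppel-like family. All 5 preparations moved the same way for 233 of the 239 raised and 45 of the 47 lowered genes. The paired test that called these genes favours such agreement, so it is no separate support. The genes named below for the size of their change were also required to agree in 5 of 5. The share over all tested genes was not counted. Without the preparation as a block, 146 genes were raised and 5 lowered. Values called "normalized counts" below were counts scaled by TMM to a common library size and compare libraries for 1 gene, not genes with each other.

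**Figure D1:**
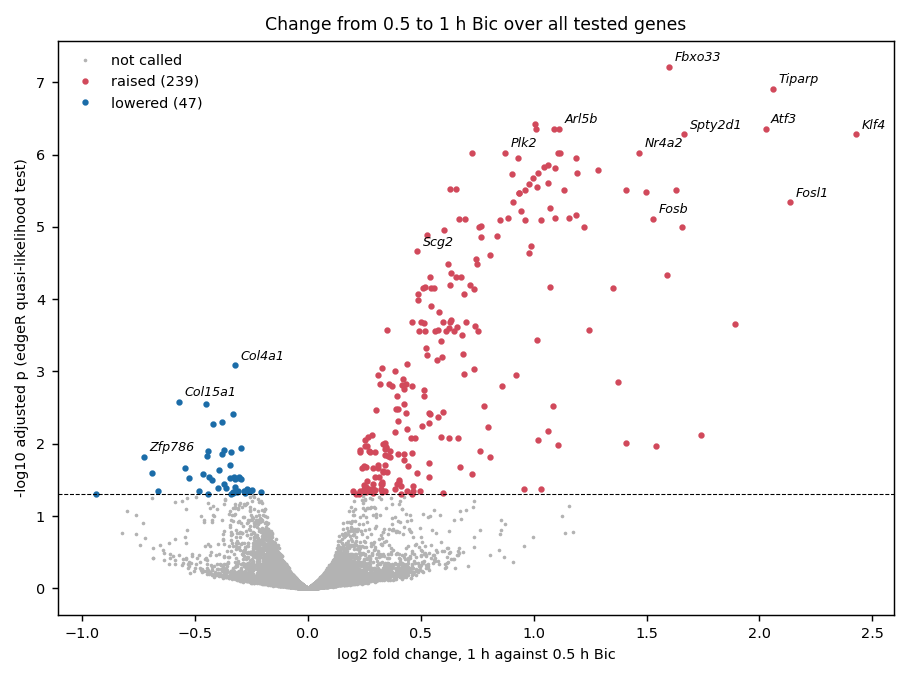
Log2 fold change from 0.5 to 1 h Bic (x) against -log10 of the edgeR adjusted p (y) for the 14806 tested genes, with the 239 raised genes in red, the 47 lowered genes in blue and the threshold of 0.05 as a dashed line. Raised genes extend to a log2 fold change of 2.43 (Klf4), and the lowered genes stay above -1.

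AP-1 transcription factors are dimers of Fos, Jun, Atf and Maf family proteins. Of the members on the list, 9 of 9 tested were raised (100%, against 1.61% of all tested genes). Their median log2 fold change was 1.02 against 0.0036 over all tested genes. The list did not hold every member of these families. Atf2, Atf4, Atf5 and Mafk, outside it, had log2 fold changes of -0.13, 0.22, 0.21 and 0.23 and were not called. Fosl1 (ENSMUSG00000024912, chr19:5447547-5455946, plus strand) and Atf3 (ENSMUSG00000026628, chr1:191170296-191218039, minus strand) rose most. Fosl1 stood at 11.4, 19.8, 23.2, 23.1 and 22 normalized counts in preparations 1, 3, 6, 7 and 8 at 0.5 h, and at 75.8, 58.6, 85.9, 106 and 132 at 1 h (log2 fold change 2.14 ± 0.18, edgeR adjusted p = 4.6e-06). Every 1 h library lay above every 0.5 h library. In the same order of preparations, Atf3 stood at 298, 517, 636, 392 and 1019 normalized counts at 0.5 h and at 2208, 1521, 2384, 1818 and 3684 at 1 h (log2 fold change 2.03 ± 0.12, edgeR adjusted p = 4.4e-07), again without overlap. Fosb rose from 6495 ± 1703 to 18525 ± 2779.5 normalized counts (mean ± SD, n = 5, as below; log2 fold change 1.53 ± 0.14, edgeR adjusted p = 7.7e-06, with its SE) and Maff, a small Maf protein, from 211 ± 76.4 to 680.3 ± 106 (log2 fold change 1.66 ± 0.15, edgeR adjusted p = 1.0e-05). Fos itself (ENSMUSG00000021250, chr12:85473890-85477273, plus strand), which had already gone from 1037 ± 193 in the controls to 14932 ± 1679 at 0.5 h, reached 29547 ± 2685 normalized counts at 1 h (log2 fold change 0.98 ± 0.08, edgeR adjusted p = 2.5e-06). Its 0.5 h libraries lay between 11948 and 15796 and its 1 h libraries between 24771 and 31037. Junb, Fosl2 and Jun rose by 1.01, 0.96 and 0.90 on the log2 scale, and Jund, the member with the smallest rise, by 0.51 ± 0.09. The call of Jund was kept in 12 of 13 alternative settings.

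All 4 members of the group of Nr4a orphan nuclear receptors and Npas4, a factor that in neurons answers mainly to calcium, were raised (median log2 fold change 1.27). Nr4a1 (ENSMUSG00000023034, chr15:101254269-101274795, plus strand) read 4196, 7224, 8233, 7130.3 and 6799.8 normalized counts at 0.5 h in preparations 1, 3, 6, 7 and 8 and 19399, 14752, 18544, 19797 and 21599.8 at 1 h (log2 fold change 1.50 ± 0.12, edgeR adjusted p = 3.3e-06). Preparation 1 was the lowest at 0.5 h and level with the others at 1 h. Nr4a2 rose from 3292 ± 841 to 9009 ± 1318 normalized counts (log2 fold change 1.47 ± 0.10, edgeR adjusted p = 9.4e-07) and Nr4a3 from 9505 ± 1412 to 18386 ± 2648 (log2 fold change 0.94 ± 0.08, edgeR adjusted p = 6.0e-06). Npas4 (ENSMUSG00000045903, chr19:4984355-4990316, minus strand) read 15452, 19029.5, 17892, 19378 and 19696 normalized counts at 0.5 h and 41542, 29446, 36571, 41568 and 43912 at 1 h (log2 fold change 1.06 ± 0.08, edgeR adjusted p = 2.5e-06), so that its lowest 1 h library, preparation 3, was still above its highest 0.5 h library. Of the Egr zinc finger factors, Egr1, Egr2, Egr3 and Egr4 rose by 0.96 ± 0.08, 1.41 ± 0.11, 1.00 ± 0.08 and 1.13 ± 0.09 on the log2 scale (edgeR adjusted p = 3.1e-06, 3.1e-06, 2.1e-06 and 3.1e-06). Their corepressors Nab1 and Nab2, the other two members of that list, had log2 fold changes of 0.02 and 0.17 and were not called.

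The stretch of 250 bases before the annotated start is shown for Fos, the 3 Nr4a genes, Ccn1 and Tiparp, all of which rose in this window (RefSeq start and sequence, GRCm38.p6, 5′ to 3′ on the gene's strand). Capitals mark TGACG on either strand (on the other strand it reads CGTCA), the core of the cAMP response element that CREB binds, and TATAAA on the gene's strand, the TATA box. Each of the Nr4a stretches held 4 copies of TGACG and the Fos stretch held 2.
Fos (chr12:85473640-85473889, plus strand): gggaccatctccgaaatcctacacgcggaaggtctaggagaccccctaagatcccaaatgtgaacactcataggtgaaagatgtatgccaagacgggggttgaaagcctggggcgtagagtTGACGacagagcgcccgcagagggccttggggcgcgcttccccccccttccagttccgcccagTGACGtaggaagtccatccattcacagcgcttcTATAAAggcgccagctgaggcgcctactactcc
Nr4a1 (chr15:101266596-101266845, plus strand): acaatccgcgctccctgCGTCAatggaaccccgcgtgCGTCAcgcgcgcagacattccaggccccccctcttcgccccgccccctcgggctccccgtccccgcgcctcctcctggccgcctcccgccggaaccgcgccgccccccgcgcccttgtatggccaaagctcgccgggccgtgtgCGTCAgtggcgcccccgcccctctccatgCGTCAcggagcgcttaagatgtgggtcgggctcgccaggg
Nr4a2 (chr2:57124004-57124253, minus strand): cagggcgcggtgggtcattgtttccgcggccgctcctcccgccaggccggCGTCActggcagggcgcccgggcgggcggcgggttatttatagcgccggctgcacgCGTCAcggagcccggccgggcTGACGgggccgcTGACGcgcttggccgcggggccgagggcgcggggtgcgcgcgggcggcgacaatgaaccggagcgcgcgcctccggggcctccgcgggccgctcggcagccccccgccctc
Nr4a3 (chr4:48045055-48045304, plus strand): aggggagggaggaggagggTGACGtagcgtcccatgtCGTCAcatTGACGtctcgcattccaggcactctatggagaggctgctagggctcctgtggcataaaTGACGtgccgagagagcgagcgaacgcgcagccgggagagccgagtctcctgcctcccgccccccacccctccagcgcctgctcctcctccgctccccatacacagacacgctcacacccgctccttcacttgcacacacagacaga
Ccn1 (chr3:145649986-145650235, minus strand): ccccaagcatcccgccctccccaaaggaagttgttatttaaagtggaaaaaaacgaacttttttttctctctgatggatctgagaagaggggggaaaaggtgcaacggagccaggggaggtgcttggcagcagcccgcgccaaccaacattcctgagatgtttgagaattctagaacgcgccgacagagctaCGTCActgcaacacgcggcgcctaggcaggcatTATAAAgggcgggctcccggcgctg
Tiparp (chr3:65528197-65528446, plus strand): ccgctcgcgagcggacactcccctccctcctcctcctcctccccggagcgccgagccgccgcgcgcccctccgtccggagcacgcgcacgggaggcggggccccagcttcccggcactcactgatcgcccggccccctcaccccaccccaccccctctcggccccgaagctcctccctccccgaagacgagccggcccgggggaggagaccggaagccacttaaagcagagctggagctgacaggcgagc

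RefSeq promoter windows (250 bases before to 50 after the start) were found for 178 of the 239 raised and 37 of the 47 lowered genes, and for 11083 of 14801 tested symbols. TGACG, on either strand, was in 45.9% of the 231 windows of raised genes, 19.5% of the 41 windows of lowered genes and 30.0% of the 14264 windows of tested genes (20.8% of all 32851 windows). The full palindrome TGACGTCA, which contains TGACG, was in 6.93% of raised, 0 of 41 lowered and 2.97% of tested windows (1.79% of all). TATAAA, on either strand, was in 16.9% of raised, 0 of 41 lowered and 7.39% of tested windows (13.6% of all). The CArG box, the SRF element, was in 3.46%, 0 of 41 and 1.3% (1.63% of all), the Egr element GCGNGGGCG in 14.7%, 7.32% and 10.7% (5.55% of all), and the AP-1 element TGANTCA in 6.06%, 4.88% and 4.93% (7.81% of all). Shares count windows, of which a gene can have more than 1, and were not tested.

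Among the other early nuclear genes on the list fixed for this work, 16 of 26 tested were raised (61.5%) and 0 lowered, with a median log2 fold change of 0.40. Klf4 (ENSMUSG00000003032, chr4:55527143-55532466, minus strand) read 128, 417, 403, 325 and 233 normalized counts at 0.5 h in preparations 1, 3, 6, 7 and 8 and 1757, 1548, 1838, 1898 and 1192 at 1 h, a 5.38-fold rise (log2 fold change 2.43 ± 0.16, edgeR adjusted p = 5.2e-07). Preparation 1 was the lowest at 0.5 h and preparation 8 the lowest at 1 h, and the groups lay far apart. Of the other Krüppel-like factors on the list, Klf9 rose by 0.33 ± 0.05, whereas Klf2, Klf6 and Klf10 had log2 fold changes of 0.08, 0.24 and -0.19 and were not called. Csrnp1, a nuclear protein named for its induction by axin, rose by 1.22 ± 0.11, the basic leucine zipper repressor Nfil3 by 1.09 ± 0.10 and the clock gene Per1 by 0.75 ± 0.08. Crem, whose locus also encodes the CREB repressor ICER, rose by 0.35 ± 0.07 (edgeR adjusted p = 0.012), a call kept in 8 of 13 alternatives, and Myc by 0.34 ± 0.08 (edgeR adjusted p = 0.044), a call kept in 4 of 13 and with 4 of 5 preparations higher at 1 h. Few members of the CREB and SRF pathway lists were called. Crem was the 1 raised gene of 10 tested in the CREB pathway list (median log2 fold change -0.09), and Srf (log2 fold change 0.34 ± 0.07, edgeR adjusted p = 0.02) the 1 raised gene of 13 tested in the SRF list (median 0.0012), with a call kept in 9 of 13 alternatives. None of these 2 lists' members was lowered by edgeR or DESeq2 after adjustment, and 2 of each were lower at an unadjusted p below 0.05.

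Many feedback inhibitors of signalling rose in the same window. Of 14 tested MAP kinase phosphatases and Sprouty-type inhibitors of the ERK pathway, 7 were raised (50.0%) and 0 lowered. Dusp1 (ENSMUSG00000024190, chr17:26505590-26562128, minus strand), a nuclear phosphatase of MAP kinases, read 2312, 3246, 3074, 3497 and 2848 normalized counts at 0.5 h and 6650.5, 4991, 5911, 6729.8 and 6499 at 1 h (log2 fold change 1.03 ± 0.09, edgeR adjusted p = 7.9e-06). No 1 h library overlapped the 0.5 h libraries. Dusp4, Dusp5, Dusp6, Dusp10 and Dusp14 rose by 0.59 to 0.75 or, for Dusp10, by 0.40 on the log2 scale, and Spry2 by 0.49, with the call of Dusp10 kept in 4 of 13 alternatives. Dusp2 and Dusp8 had log2 fold changes of 0.10 and 0.08, Spred1, Spred2 and Spred3 of -0.04 to -0.08, and none of these was called. In the list of other feedback genes 14 of 24 tested were raised (58.3%) and 0 lowered. Gadd45b and Gadd45g, which act in stress signalling and DNA demethylation, rose by 1.28 ± 0.10 and 1.02 ± 0.08, and Gadd45a, whose call was kept in 4 of 13 alternatives, by 0.44 ± 0.10. Sik1, a kinase that restrains the CREB coactivators, rose from 1366 ± 289 to 3044 ± 309.8 normalized counts (log2 fold change 1.16 ± 0.10, edgeR adjusted p = 7.6e-06), whereas its relatives Sik2 and Sik3 had log2 fold changes of 0.01 and -0.02 and were not called. The pseudokinase Trib1 rose as well (log2 fold change 1.11 ± 0.08, edgeR adjusted p = 9.4e-07), and Trib2 and Trib3 had log2 fold changes of 0.02 and -0.17 and were not called. Errfi1, an inhibitor of EGF receptors, rose by 1.12 ± 0.08, and Rgs2, Rgs4 and Rgs16, which shorten G protein signals, by 0.63, 0.54 and 0.44 (the last kept in 8 of 13). In both lists no member was lowered, by edgeR or DESeq2 after adjustment or at an unadjusted p below 0.05, but Dusp7, an ERK phosphatase that the list did not hold, had a log2 fold change of -0.22 ± 0.05 (edgeR adjusted p = 0.058).

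Genes for secreted and synaptic proteins had smaller medians, at log2 fold changes of 0.18 and 0.26. Of 27 tested genes for secreted factors and their processing, 8 were raised (29.6%) and 2 lowered (7.41%, against 0.317% of all tested genes). Of 26 tested genes for synaptic and dendritic proteins 11 were raised (42.3%) and 0 lowered. Bdnf (ENSMUSG00000048482, chr2:109674700-109727007, plus strand), the neurotrophin, read 2440.3, 2579, 3965, 3640.2 and 3142 normalized counts at 0.5 h and 4883, 3804, 5422, 5270.4 and 5473 at 1 h in preparations 1, 3, 6, 7 and 8 (log2 fold change 0.66 ± 0.07, edgeR adjusted p = 4.9e-05). Each preparation rose, but the groups overlapped, since preparation 3 at 1 h lay below preparation 6 at 0.5 h. Inhba (ENSMUSG00000041324, chr13:16011851-16031621, plus strand), a subunit of activin A, read 206, 206, 274, 211 and 206 at 0.5 h and 279.6, 295, 320.4, 339 and 248 at 1 h (log2 fold change 0.43 ± 0.09, edgeR adjusted p = 0.017), also with overlap and with a call kept in 8 of 13 alternatives. Homer1 (ENSMUSG00000007617, chr13:93299635-93405129, plus strand), a scaffold of metabotropic glutamate receptors, went from 3303 ± 373 to 4747 ± 709 normalized counts (log2 fold change 0.51 ± 0.06, edgeR adjusted p = 7.0e-05). The controls of these 3 genes read 3056 ± 661, 220.4 ± 12.8 and 3109 ± 217, and their change to 0.5 h was not called (log2 fold changes of 0.05 ± 0.08, 0.01 ± 0.10 and 0.08 ± 0.06). At 2 h they read 8703 ± 813, 1349 ± 146 and 18609 ± 1932. Arc (ENSMUSG00000022602, chr15:74669083-74672570, minus strand), which governs AMPA receptor removal from synapses, differed in that it had gone from 651 ± 236 to 13069 ± 1823 by 0.5 h, reached 25338 ± 5671 at 1 h (log2 fold change 0.93 ± 0.07, edgeR adjusted p = 1.1e-06) and stood at 23983 ± 4129 at 2 h. Ptgs2, the inducible prostaglandin synthase, rose by 1.63 ± 0.13, the kinase Plk2 by 0.87 ± 0.06 and the protocadherin Pcdh8 by 0.76 ± 0.07. Scg2, Nptx2, Adcyap1, Penk and Plat, all of which encode secreted proteins, rose by 0.49, 0.46, 0.40, 0.46 and 0.42, and the calls of Nptx2, Adcyap1, Penk and Plat were kept in 6, 10, 8 and 12 of 13 alternatives. Receptor subunits and the kinase Camk2a (Gria1, Grin1, Grin2a, Grin2b, Camk2a) had log2 fold changes between -0.09 and 0.07 and were not called.

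**Figure D2:**
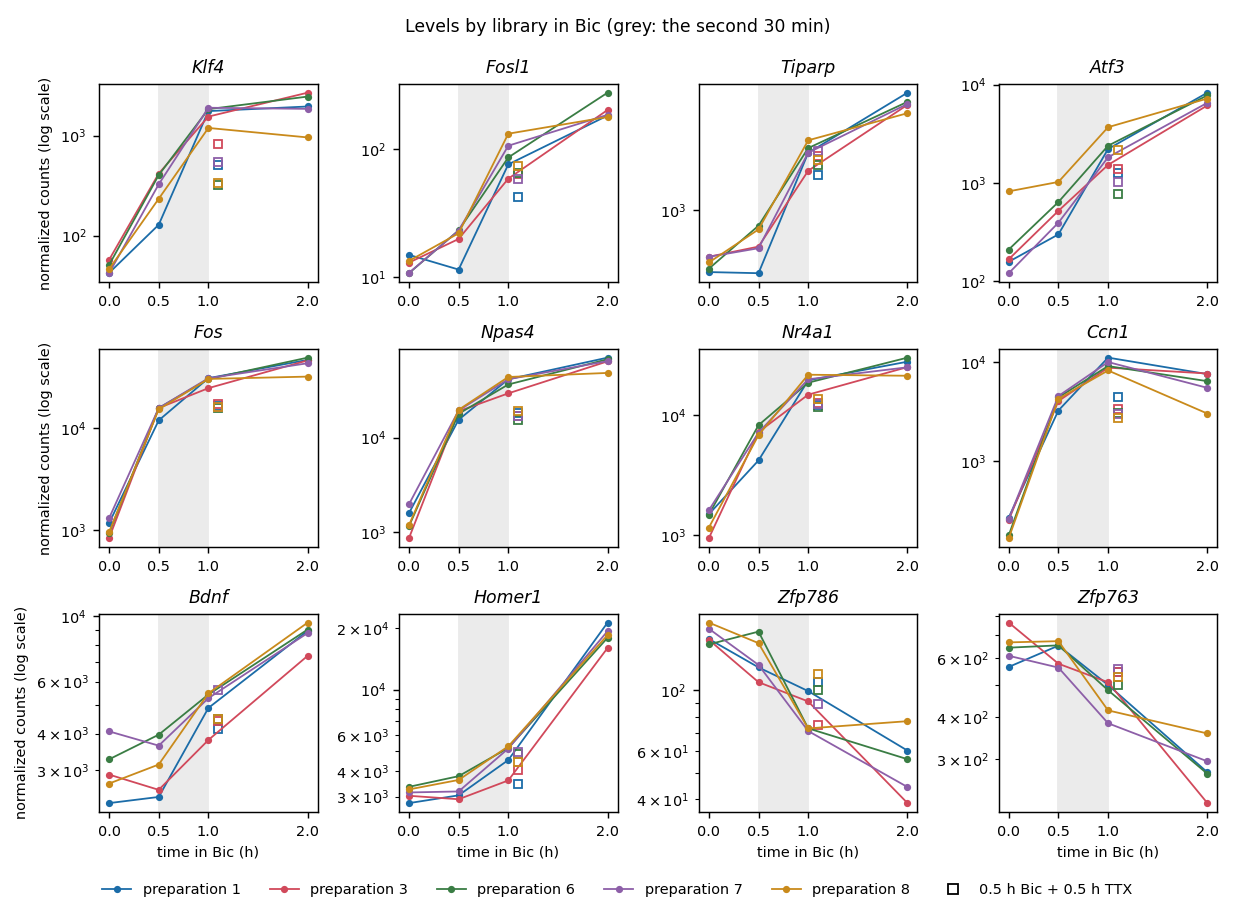
Normalized counts (y, log scale) of 12 genes against the time in Bic in hours (x, 0 is the untreated control), with 1 line per culture preparation and open squares, drawn slightly to the right of 1 h, for 0.5 h Bic followed by 0.5 h with TTX. In the grey window Klf4, Fosl1, Tiparp and Atf3 climb in all 5 preparations, Fos, Npas4, Nr4a1 and Ccn1 go on from a steep earlier rise, Bdnf and Homer1 begin to climb, and Zfp786 and Zfp763 fall.

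To ask whether the log2 change was larger in the first or the second 30 min, the change from 0.5 to 1 h was tested against the change from the control to 0.5 h in 1 fit over 15 libraries. The test compares ratios, not counts gained. The second change exceeded the first for 11 of 15214 tested genes (0.0723%) and fell short of it for 19 (0.125%). The first change alone, control to 0.5 h, had 80 raised genes among 14783 (0.541%) and 0 lowered ones (0 by DESeq2 as well, and 309 at an unadjusted p below 0.05 in edgeR). It shares the 0.5 h libraries with the step, and so the values of both are given side by side and their overlap was not counted. The 11 genes with the larger log2 change in the second 30 min, named here because the test called them, were Tiparp, Fbxo33, Zbtb10, Cwc25, Arid5a, Slc16a1, Nr4a3, Arl5b, Irs2, Fam107b and Rasgef1b. Tiparp (ENSMUSG00000034640, chr3:65528410-65555518, plus strand), a mono-ADP-ribosyltransferase, read 369, 562, 784, 548 and 739 normalized counts at 0.5 h, against 433 ± 47.1 in the controls, and 2493, 1874, 2686, 2497 and 3041 at 1 h. Its log2 fold change was 0.45 ± 0.13 in the first and 2.06 ± 0.11 in the second 30 min (difference 1.61 ± 0.24, edgeR adjusted p = 0.0035). Fbxo33 (ENSMUSG00000035329, chr12:59200655-59219725, minus strand), the substrate receptor of a ubiquitin ligase, went by 0.59 ± 0.10 and then by 1.60 ± 0.07 (difference 1.02 ± 0.19, edgeR adjusted p = 0.03), with 1 h libraries between 2727 and 4149.6 normalized counts, all above the highest 0.5 h library at 1473. Zbtb10, a zinc finger factor, went by 0.07 ± 0.06 and then 1.10 ± 0.08 (difference 1.03 ± 0.14, edgeR adjusted p = 0.0016). The lactate transporter Slc16a1 (0.12, then 1.01), the insulin receptor substrate Irs2 (0.27, then 1.06) and Nr4a3 (0.09, then 0.94) had the same course. The other Nr4a receptors did not pass this test, with differences of -0.85 ± 0.24 for Nr4a1 and 0.45 ± 0.17 for Nr4a2.

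The 19 genes whose log2 change was smaller in the second 30 min included many classical immediate early genes: Fos, Fosb, Junb, Egr4, Npas4, Arc, Ier2, Btg2, Dusp1, Dusp6, Gadd45g, Ccn1 and Arl4d, with Gm13889, 1700016P03Rik, Mir212, Ptp4a1, Col4a1 and Col4a2. Arc went by 4.40 ± 0.16 and then by 0.93 ± 0.07 on the log2 scale (difference -3.47 ± 0.19, edgeR adjusted p = 3.9e-08), and Fos by 3.86 ± 0.13 and then by 0.98 ± 0.08 (difference -2.89 ± 0.16, edgeR adjusted p = 3.9e-08). For 3 of these genes the gains in counts were computed as well. Fos gained 13895 normalized counts in the first 30 min and 14615 in the second, Npas4 gained 16947 and 20318, and Arc 12418 and 12269. In counts, Fos and Npas4 thus gained more in the second 30 min than in the first, and Arc nearly the same. The smaller second change of these 3 genes holds for the log2 scale only. Mir212, a microRNA gene counted here from poly-A RNA and thus not as the mature microRNA, rose by 3.01 ± 0.25 in the first 30 min and had a log2 fold change of 0.36 ± 0.15 in the second, which was not called. Ptp4a1 overlaps a second gene model of the same symbol, so that its counts cover only reads that fell on 1 of them. These numbers depended on the preparations. Genes with a larger second log2 change numbered 6, 35, 6, 3 and 4 without preparation 1, 3, 6, 7 and 8. Genes with a smaller one numbered 30 without preparation 3 and 15 to 24 without each of the others. Without the block the numbers were 2 and 14.

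**Figure D3:**
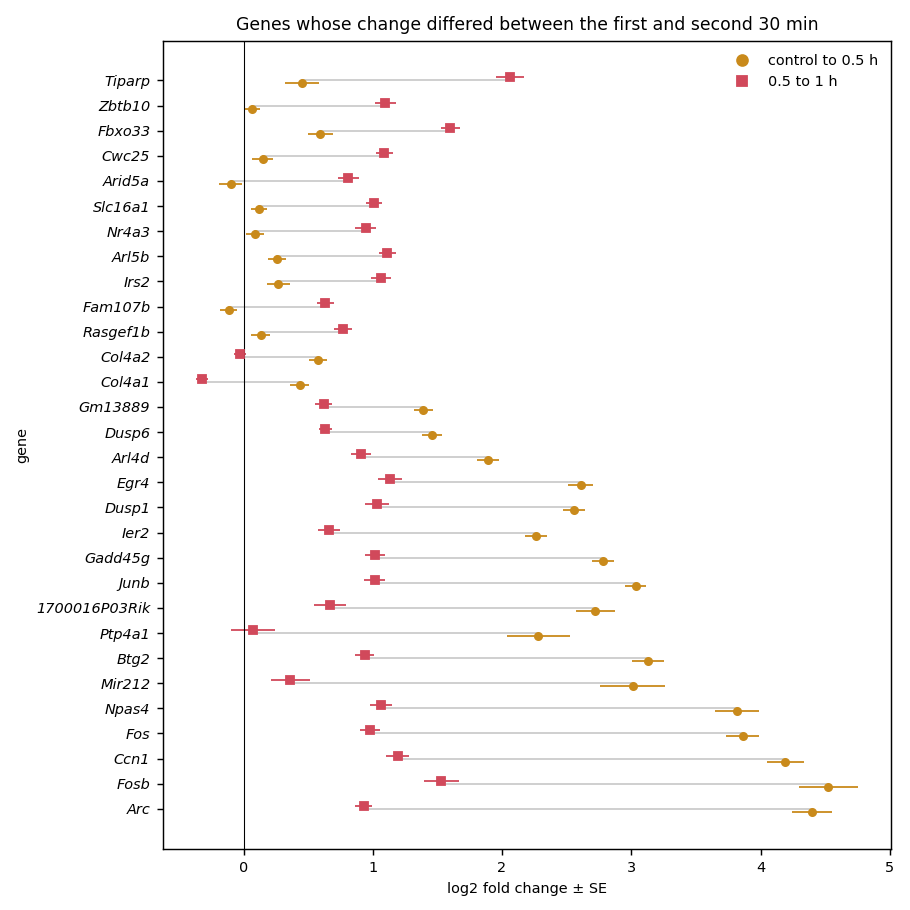
Log2 fold change ± SE (x) in the first 30 min of Bic (circles, control to 0.5 h) and in the second (squares, 0.5 to 1 h) for the 30 genes whose 2 changes differed (y), ordered by the difference. For the 11 genes at the top the squares lie to the right of the circles, and for the 19 genes below, from Col4a2 to Arc, they lie to the left.

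Whether the rise of this window needed ongoing firing was read from the SP libraries, which shared the first 0.5 h of Bic and then had TTX for the same 30 min. Of 15540 genes tested, 71 (0.457%) were higher and 5 (0.0322%) lower after 1 h Bic than after 0.5 h Bic and 0.5 h with TTX. Without preparation 1, 3, 6, 7 and 8 in turn the higher genes numbered 39, 110, 134, 32 and 32, and the lower genes 2, 5, 53, 0 and 0 (edgeR, adjusted p below 0.05). Without the block they numbered 34 and 1, and DESeq2 with the block called 112 and 9. Since the 1 h libraries enter this comparison and the step, values are given side by side. With TTX, Npas4 did not pass the test against 0.5 h (log2 fold change -0.08 ± 0.07) and read 18363, 17019.9, 15194, 17004 and 19334 normalized counts in preparations 1, 3, 6, 7 and 8, all below the 1 h Bic libraries (difference 1.15 ± 0.07, edgeR adjusted p = 3.4e-06). Fos read 16414 ± 646 with TTX against 29547 ± 2685 without it (difference 0.85 ± 0.07, edgeR adjusted p = 2.6e-05), and Arc 14762 ± 2689 against 25338 ± 5671 (difference 0.78 ± 0.06, edgeR adjusted p = 4.2e-05). Ccn1 (ENSMUSG00000028195, chr3:145646976-145649981, minus strand), a matricellular protein, had the lowest edgeR adjusted p of the 71 genes: its libraries read 3230.1, 4025, 4382, 4515 and 4234 at 0.5 h, 10996, 8713, 9034, 9923 and 8166 at 1 h Bic and 4406, 3351, 3029, 3013 and 2725 with TTX (difference 1.52 ± 0.06, edgeR adjusted p = 5.5e-08). Klf4 read 509.7, 820.3, 324, 542 and 334 with TTX, all below its 1 h libraries and overlapping its 0.5 h libraries (difference 1.78 ± 0.16, edgeR adjusted p = 8.1e-05). Dusp1, Trib1, Gadd45g and Cebpb likewise differed, by 1.03, 0.83, 0.93 and 0.57 on the log2 scale. The 5 genes that were lower without TTX were Klf10, Txnip, Zfp281, Kcna4 and Yod1, named after their values were seen, and none of them was called from 0.5 to 1 h Bic.

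A second set of genes went on rising with TTX. Against 0.5 h Bic, the libraries with TTX had 93 raised genes of 15091 tested (0.616%), a comparison that shares the 0.5 h libraries with the step. Egr3 read 10227 ± 1065 normalized counts with TTX and 10126 ± 2221 at 1 h Bic, from 5018 ± 1029.9 at 0.5 h (Bic minus TTX -0.03 ± 0.09, 95% interval -0.22 to 0.15, edgeR adjusted p = 0.95). For Fbxo33 the difference was 0.06 ± 0.11 (95% interval -0.17 to 0.29), for Zbtb10 0.04 ± 0.09 (-0.15 to 0.24), for Tiparp 0.21 ± 0.10 (-0.02 to 0.43) and for Egr2 0.17 ± 0.09 (-0.03 to 0.36). Fbxo33 rose by 1.56 ± 0.09 over 0.5 h Bic with TTX (edgeR adjusted p = 3.8e-06) and by 1.60 ± 0.07 without it. Tiparp rose by 1.88 ± 0.11 with TTX (edgeR adjusted p = 4.7e-06). Bdnf, Inhba and Homer1 also rose with TTX, by 0.56 ± 0.08, 0.48 ± 0.09 and 0.39 ± 0.06 over 0.5 h Bic (edgeR adjusted p = 0.0036, 0.027 and 0.013), and their differences between the arms were 0.10 ± 0.08 (-0.06 to 0.27), -0.07 ± 0.09 (-0.26 to 0.11) and 0.13 ± 0.07 (-0.02 to 0.28). Fosb, Nr4a1, Atf3, Maff, Ptgs2 and Spty2d1, a histone chaperone, did both, since they rose over 0.5 h Bic with TTX and were higher still without it. Of these, Spty2d1 went from 1396 ± 325 to 3243 ± 155 with TTX and to 4427 ± 457 without it (difference 0.45 ± 0.07, edgeR adjusted p = 0.0055).

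**Figure D4:**
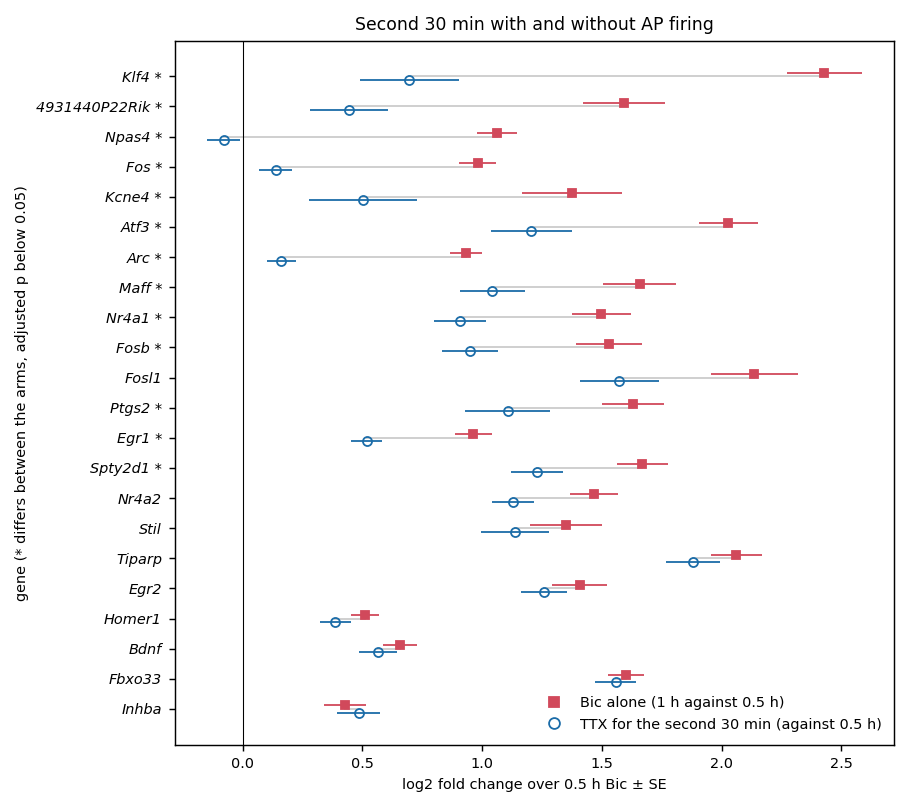
Log2 fold change over 0.5 h Bic ± SE (x) of 22 raised genes (y) after 30 min more of Bic alone (squares) or with TTX added (open circles), ordered by the difference between the arms, with a star where that difference passed the threshold. Npas4, Fos and Arc have circles near 0 and squares near 1, whereas the marks of Fbxo33, Bdnf and Inhba nearly coincide.

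The structure of the genes is given as a description without a test. Protein-coding genes had a median genomic span of 26.8 kb among all tested and 10.2 kb among the raised genes. The median was 3.95 kb for the 17 protein-coding genes that slowed, 27.1 kb for the 11 that gathered speed and 5.31 kb for the 62 that were higher at 1 h Bic than with TTX. Among the 239 raised genes 225 were protein coding. One of the named genes was not, 4931440P22Rik, a transcribed processed pseudogene that lies on the strand opposite to Tiparp and overlaps it. It rose by 1.59 ± 0.17 and, unlike Tiparp, passed the test of the arms, being higher at 1 h Bic than with TTX (difference 1.23 ± 0.13, edgeR adjusted p = 4.5e-04). Counting was strand-specific, so reads of the 2 genes were kept apart.

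From 1 to 2 h Bic the transcriptome changed far more widely, with 1686 of 15330 tested genes raised (11.0%) and 1921 lowered (12.5%), and the members of the step parted. Fosl1, Tiparp, Atf3 and Stil, a centriole assembly protein, rose from 1 to 2 h by 1.23 ± 0.15, 1.14 ± 0.08, 1.69 ± 0.10 and 2.05 ± 0.11 more. Klf4, Egr2 and Kcne4, a potassium channel subunit that had risen by 1.38 ± 0.21 in the step, had changes of 0.23 ± 0.10, 0.29 ± 0.11 and -0.06 ± 0.13 that were not called. Ccn1, Btg2 and Dusp1 turned and fell by 0.70 ± 0.11, 0.54 ± 0.08 and 0.31 ± 0.08 (edgeR adjusted p = 1.3e-04, 1.2e-04 and 0.0066), so that their means were highest at 1 h among the 4 time points. Btg2, an antiproliferative protein that promotes mRNA deadenylation, read 606 ± 83.2, 5252 ± 815, 10031 ± 842 and 6946 ± 1232 normalized counts in the control and at 0.5, 1 and 2 h. The related gene Tob1 also had its highest mean at 1 h, with 1704 ± 274, 2291 ± 129.9 and 1349 ± 176 at 0.5, 1 and 2 h. These values share the 1 h libraries with the step.

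The 47 lowered genes changed little in size, with log2 falls from 0.21 to 0.94, the last that of Gm45869, a noncoding RNA with few counts. Their number rested on the pairing and on single preparations: it was 14, 62, 13, 10 and 16 without preparation 1, 3, 6, 7 and 8, and 5 without the block. Zinc finger genes with Zfp symbols, most of which encode DNA-binding proteins, made up 21 of the 47 (44.7%), against 353 of 14806 tested genes (2.38%). This group was picked after its values were seen. Among the 353 tested Zfp genes 5.95% were lowered, against 0.317% of all tested genes, and 1, Zfp184, was raised. Their median log2 fold change was -0.12 against 0.0036 over all tested genes, and 77.1% of them lay below 0 against 48.7% of all. The number of lowered Zfp genes was less settled than their direction: it was 5 without the block, 40 with the block over all genes with 1 read, and 6, 26, 7, 4 and 7 without preparation 1, 3, 6, 7 and 8. Over the 13 alternatives the share below 0 was 73.4% to 79.3% for Zfp genes and 45% to 49.4% for all genes. Zfp786 (ENSMUSG00000051499, chr6:47819266-47830867, minus strand) read 121, 107, 164, 124 and 149 normalized counts at 0.5 h in preparations 1, 3, 6, 7 and 8 and 99.4, 91.1, 72.7, 71.1 and 72.6 at 1 h (log2 fold change -0.73 ± 0.15, edgeR adjusted p = 0.015). Each preparation fell, and the groups did not overlap, though the call was kept in 9 of 13 alternatives. Zfp763 (ENSMUSG00000067430, chr17:33016863-33033402, minus strand) read 652, 577, 654, 562 and 673 at 0.5 h and 499, 508, 481, 384 and 419 at 1 h (log2 fold change -0.45 ± 0.07, edgeR adjusted p = 0.0028), also without overlap and with a call kept in 13 of 13 alternatives, as were those of Zfp780b and Zfp81. Zfp748, Zfp994, Zfp39 and Zfp563 fell by 0.54 ± 0.11, 0.48 ± 0.11, 0.45 ± 0.09 and 0.44 ± 0.11, with calls kept in 8, 5, 9 and 3 of 13. The authors left out reads that mapped to several places, which removes reads shared by near-identical family members.

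Before the step no Zfp gene was called, and after it many were lowered. From the control to 0.5 h the median log2 fold change of 352 tested Zfp genes was 0.0097, against 0.0049 for all genes. Of them 0 were called in either direction by edgeR or DESeq2 (13 higher and 14 lower at an unadjusted p below 0.05 in edgeR). Over all genes edgeR called 0.541% raised and 0 lowered. From 1 to 2 h the Zfp median was -0.29 against 0.0073, with 197 of 352 lowered and 19 raised. Over all genes 12.5% were lowered and 11.0% raised. With TTX in the second 30 min the Zfp median over 0.5 h Bic was -0.07 (-0.0012 for all genes), with 1 of 353 raised and 1 lowered. Of all 15091 tested genes 93 were raised (0.616%) and 8 lowered. Between the arms 1 of 353 Zfp genes differed (Zfp281, lower at 1 h Bic than with TTX). Of all 15540 tested genes 71 were higher and 5 lower at 1 h Bic. Zfp39 read 224 ± 23.6 normalized counts at 0.5 h, 165 ± 22.8 at 1 h, 159.6 ± 12.9 with TTX and 61.5 ± 13.6 at 2 h. These comparisons share libraries with the step.

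**Figure D5:**
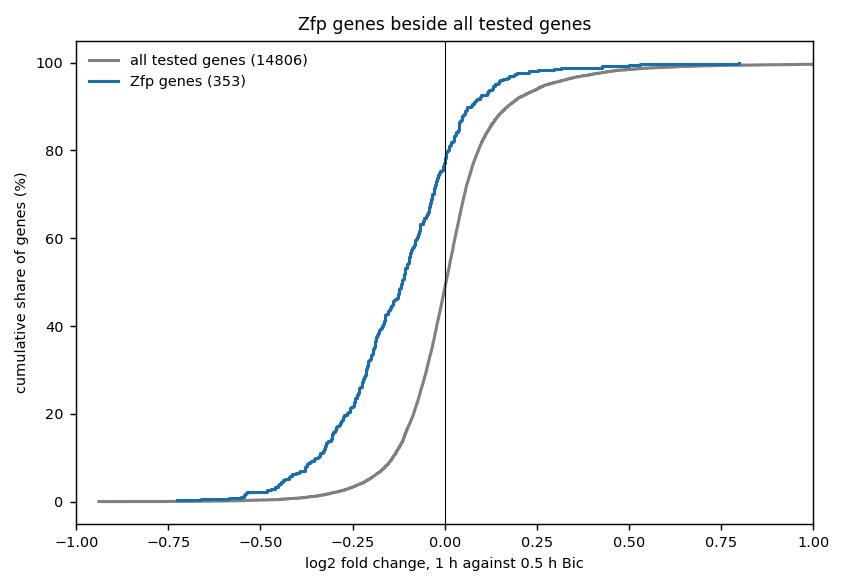
Cumulative share of genes in percent (y) against the log2 fold change from 0.5 to 1 h Bic (x) for the 353 tested Zfp genes (blue) and all 14806 tested genes (grey), with the x axis limited to -1 to 1. The blue curve lies to the left, with 77.1% of Zfp genes below 0 against 48.7% of all genes.

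Among the other lowered genes, Col4a1 (ENSMUSG00000031502, chr8:11198423-11312826, minus strand), a chain of basement membrane collagen, had the lowest edgeR adjusted p of the lowered genes: it read 4125, 4851, 3505, 4256 and 2508 normalized counts at 0.5 h and 3261, 3901, 2963, 3461 and 1911 at 1 h (log2 fold change -0.32 ± 0.05, edgeR adjusted p = 8.3e-04). The groups overlapped, since the preparations differed in level, while each of them fell. In the first 30 min Col4a1 had risen by 0.43 ± 0.07 and its neighbour Col4a2 by 0.57 ± 0.07, and in the second the change of Col4a2 was -0.03 ± 0.05 and was not called. Of 5 tested type IV collagen genes, Col4a1 was the 1 lowered. Whether Col4a1 and Col4a2 differed from each other was not tested. Markers of smooth muscle and mural cells had log2 fold changes below 0 that were not called, Tagln of -0.55 ± 0.14 (edgeR adjusted p = 0.061) and Acta2 of -0.61 ± 0.24 (edgeR adjusted p = 0.33), and of the 4 tested endothelial and mural markers 3 lay below 0 (median -0.17). Their part in the collagen values was not tested. Col15a1, a collagen of basement membrane zones, fell by 0.57 ± 0.09 (edgeR adjusted p = 0.0026). Ccn2, a secreted matricellular protein, fell by 0.42 ± 0.09 (edgeR adjusted p = 0.032), with a call kept in 7 of 13 alternatives. Ccn1, a relative of Ccn2, rose in the same window. The remaining lowered genes named by size, Slc31a2, 2610008E11Rik, Naa16 and Jrkl, fell by 0.53 ± 0.12, 0.44 ± 0.09, 0.44 ± 0.10 and 0.40 ± 0.09, with calls kept in 5, 9, 3 and 5 of 13 alternatives.

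Cell type markers and signs of RNA quality were read beside these results, and their part in them was not tested. The 11 neuron markers summed to between 225900 and 239900 normalized counts in the 0.5 h libraries and between 213400 and 244400 in the 1 h libraries. The 8 astrocyte markers summed to 31480 to 34790 and 27500 to 43270, the 7 markers of the oligodendrocyte lineage to 3511 to 5476 and 3398 to 5507, the 5 endothelial and mural markers to 421 to 559 and 366 to 610, and the 6 microglia markers to 172 to 236 and 163 to 274. No marker was at 0 throughout a group, and of the 32 markers tested none was called from 0.5 to 1 h by edgeR or DESeq2, with 1 higher and 1 lower at an unadjusted p below 0.05. Sox9, a factor of glial progenitors and astrocytes that was named after its values were seen, rose by 0.98 ± 0.10 and read 782 ± 162 with TTX against 1741 ± 446 without it. The 7 tested mitochondrially encoded mRNAs had a median log2 fold change of -0.21, and none was called by edgeR, whereas 6 were lower at an unadjusted p below 0.05 and DESeq2 called 2. Of the stress lists Dnajb1 (heat shock, 1 of 7 tested) and Ppp1r15a (endoplasmic reticulum stress, 1 of 10) were raised, by 0.55 ± 0.06 and 0.52 ± 0.06. None of the 6 tested microRNA genes and host transcripts on the list was called by edgeR or DESeq2, and the microRNA genes Mir132 (log2 fold change 0.54 ± 0.15) and Mir212 (0.36 ± 0.15) were higher at an unadjusted p below 0.05. The noncoding transcript 1700016P03Rik of the same locus, which the list did not hold, was raised by 0.67 ± 0.12 (edgeR adjusted p = 0.0082). The libraries held 12338915 to 27638221 counts at 0.5 h and 17229802 to 44206367 at 1 h. With all libraries thinned to the smallest total, 221 genes were raised and 29 lowered.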

How the data were processed

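RNA of hippocampal cultures was poly-A selected and made into strand-specific libraries, which were read on a NextSeq 500 for 75 cycles from 1 end. The authors demultiplexed the reads with bcl2fastq 2.20.0.422, aligned them with STAR 2.5.4b to GRCm38 (Ensembl 94) and deposited raw counts per gene made with featureCounts 1.6.5, leaving out reads that mapped to several places or to several genes. Overlapping gene models thus lose shared reads. Of 54532 genes in the table, 54495 matched the annotation used for positions.

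From these counts, edgeR 4.0.16 in R 4.3.3 (TMM scaling, filterByExpr, glmQLFit and glmQLFTest) was fitted to the libraries of each comparison alone, with the preparation as a block, and p-values were adjusted over all tested genes by Benjamini-Hochberg at 0.05. The procedure was tested on simulated data. The labels give the preparation of each library. Deviations from group means over 13486 genes correlated at 0.42 on average between same-numbered libraries of 0.5 h and 1 h Bic (0.294 to 0.578) and at -0.11 between differently numbered ones, and no pair of libraries was identical. Normalized counts were TMM-scaled counts. Intervals are 95% intervals from the fits.

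The comparison, gene lists and tests were chosen with earlier results of these data known. Named were the 15 genes with the largest rise and the 15 with the largest fall among called genes with at least 50 normalized counts on average and 1 direction in 5 of 5 preparations, all called members of the lists, and Fos, Arc, Npas4, Egr1, Nr4a1, Bdnf, Inhba and Homer1. Other names are those that the timing or TTX tests called or that were chosen after their values were seen. The comparison of TTX libraries with 0.5 h Bic was added after the design was set. Planned counts of raised genes also called in neighbouring comparisons are not given, since these share libraries. Alternatives were no block, other filters, RLE scaling, DESeq2 1.42.0, equal depth and leaving out each preparation. The other 20 libraries of the series, which had other drugs or later interventions, were not used here. The result of 1 named gene is not reported here.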

Additional observations from a re-analysis of the deposited data

Results flagged for a closer look

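For 97 named genes the log2 changes of the 5 preparations from 0.5 to 1 h Bic were searched for a preparation far from the other 4 (Dixon's criterion of 0.71 for 5 values). Of the 97 genes 4 had one. Chance gives about 1 in 20, so this number is no more than chance gives. In 3 of the 4 it was preparation 1, which also had the fewest counts of the 0.5 h libraries. Ccn1 rose by 1.77 in preparation 1 and by 0.95 to 1.14 in the others. Dusp6 rose by 0.82 in preparation 1 against 0.57 to 0.61, and the secretory granule protein Scg2 by 0.64 against 0.44 to 0.49. Gem, a small GTPase that restrains calcium channels, rose by 1.24 in preparation 7 and by 0.21 to 0.49 in the others. The part of depth or preparation in these values was not tested.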

How the results depend on the processing

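Raised genes numbered 239 with the replicate block and 166 to 243 when 1 preparation was left out. They numbered 146 with no replicate block and 377 with the block over all genes with 1 read, a fit whose prior degrees of freedom were infinite. Lowered genes numbered 47 with the block, 10 to 62 when 1 preparation was left out, 5 with no replicate block, 13 with no block over all genes, 131 with the block over all genes, 18 with DESeq2 without the block and 29 at equal depth. On the log2 scale, genes steeper in the second 30 min numbered 11 with the block (3 to 35 when 1 preparation was left out). They numbered 2 with no replicate block, 49 with the block over all genes and 20 with DESeq2 and the block. Genes less steep numbered 19 (15 to 30 when 1 preparation was left out) and 46 with the block over all genes. Genes higher at 1 h Bic than with TTX numbered 71 with the block (32 to 134 when 1 preparation was left out), 34 with no replicate block, 241 with the block over all genes and 112 with DESeq2 and the block. Genes lower than with TTX numbered 5 with the block (0 to 53 when 1 preparation was left out), 1 with no replicate block, 81 with the block over all genes, 9 with DESeq2 and the block and 8 with DESeq2 without it. The cause of these differences was not tested. The remaining alternatives stayed within 1.5 times of each count.

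No named gene changed its direction. For the step, 1075 of the alternative values of named genes kept their side of the threshold and 186 lost it. Of 81 named raised genes 58 were called in each of 13 alternatives, and of 16 named lowered genes 3. For the timing test 320 values kept the call and 70 lost it, and for the TTX test 764 and 219.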

Other observations

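The genes below were chosen after their values were seen, and the values are those of the step from 0.5 to 1 h Bic. The receptors of the inhibitory neuropeptide somatostatin moved in different directions: Sstr1 and Sstr2 rose by 0.52 ± 0.06 and 0.40 ± 0.07 on the log2 scale (edgeR adjusted p = 6.7e-05 and 0.0033), Sstr3 had a log2 fold change of -0.29 ± 0.06 and was lowered (edgeR adjusted p = 0.011), and Sstr4, the other tested member, had 0.09 ± 0.09 and was not called. All 4 tested members of the Btg and Tob family, antiproliferative proteins that recruit the deadenylase of mRNA decay, were raised. Besides Btg2 and Tob1 these were Btg1 (0.70 ± 0.06, edgeR adjusted p = 7.7e-06) and Tob2 (0.99 ± 0.10, edgeR adjusted p = 1.8e-05). Of 5 tested inhibitors of the NF-kB family, the nuclear proteins Nfkbiz and Nfkbid rose by 1.05 ± 0.08 and 0.75 ± 0.10 (edgeR adjusted p = 1.5e-06 and 2.7e-04), whereas Nfkbia, the cytoplasmic inhibitor, had -0.10 ± 0.08 and was not called.

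Among 14 tested imprinted genes 4 were raised, namely Magel2 (0.69 ± 0.09), Mest (0.60 ± 0.06), Peg10 (0.60 ± 0.08) and Zdbf2 (0.58 ± 0.07), and the other 10, such as Peg3 (0.05 ± 0.06) and Ndn (0.04 ± 0.05), were not called. Of 12 clock genes, Per1, Ciart and Cry2 were raised, by 0.75 ± 0.08, 0.40 ± 0.09 and 0.28 ± 0.05, and the other 9, such as Per2 (0.13 ± 0.07) and Nr1d1 (0.09 ± 0.06), were not called. The metallothioneins Mt1 and Mt2 rose by 0.30 ± 0.06 and 0.32 ± 0.07, and the log2 fold change of Mt3 was 0.22 ± 0.07 and not called.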
